A study of Mus musculus with 11 samples.

Results

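The genes described here are 7 regulators of G protein signaling, *Rgs1*, *Rgs2*, *Rgs3*, *Rgs10*, *Rgs14*, *Rgs16* and *Rgs19*, taken by symbol from the 52997 genes of a count table of mouse regulatory T (Treg) cells. All 7 were among the 12932 genes that passed the filter on low counts and were tested. Chemokine receptors signal by loading GTP onto a Gα subunit, mostly of the Gi class, and RGS proteins end that signal by speeding up GTP hydrolysis on Gα. They thereby limit how strongly and for how long a T cell responds to chemokines, S1P and other ligands that guide it into, within and out of tissues. *Rgs1*, *Rgs2*, *Rgs3* and *Rgs16* belong to the R4 subfamily, *Rgs10* and *Rgs14* to the R12 subfamily, and *Rgs19* to the RZ subfamily.

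The cells were clonotype+ Treg cells from vTreg53 Tg+ mice on the C57BL/6 strain, which carry the T cell receptor (TCR) of 1 Treg clone found in visceral adipose tissue (VAT). Male donors bore a GFP reporter knocked into *Foxp3* and the TCR transgene in the heterozygous state, and their Treg cells, taken from pooled spleen and lymph nodes (Spl/LN), were moved into CD45.1+ B6 recipients. The recipients were primed 6 weeks after transfer with complete Freund's adjuvant and boosted at week 7 with incomplete Freund's adjuvant, each with or without Fat1562, a peptide agonist of this TCR, and the donor cells were sorted at week 8 from Spl/LN or from VAT. Each of the 11 Smart-seq2 libraries held the mRNA of 1000 cells. From recipients of adjuvant alone came 3 libraries of Spl/LN and 2 of VAT cells, and from recipients of adjuvant/Fat1562 came 3 of each tissue. All are labelled as male and 15 weeks old. For the controls the sample labels read unimmunized and PBS, while the study describes adjuvant alone, and the latter name is used. All 4 groups share the 1 TCR, the reporter and the transfer, so no library shows a polyclonal or untransferred Treg cell.

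Library totals ran from 4490242 to 6570057 counts, and between 19797 and 21991 genes had at least 1 count. The sorted cells carried the markers of their label: normalized counts of *Foxp3*, the transcription factor that defines Treg cells, had group means between 7100 and 9831, and those of *Cd4* between 2396 and 3397. Markers of other cells were low. The summed level of 9 macrophage and monocyte markers was at most 19.6 CPM (counts scaled to the library total), and that of 6 adipocyte markers at most 1.94 CPM. The summed level was at most 77.2 CPM for 8 B cell markers, 30.9 for 5 dendritic cell markers, 34.7 for 5 CD8 T and NK cell markers, 3.21 for 6 granulocyte and mast cell markers, 7.62 for 6 stromal cell markers and 3.65 for 6 platelet and erythroid markers. The sum of 4 endothelial cell markers, nearly all of it *Pecam1*, was 43.2 and 52.0 CPM in VAT adjuvant alone and 75.9 to 110.4 CPM in the other libraries. The macrophage genes *Adgre1*, *C1qc*, *Cd14* and *Fcgr1* were at 0 in VAT adjuvant alone. An exception was a sum of 5 plasma cell markers, led by immunoglobulin transcripts, which was 1061 CPM in VAT adjuvant alone replicate 1 and 5411 CPM in replicate 2. It was 3332 to 3924 CPM in Spl/LN adjuvant alone, 2298 to 2478 CPM in Spl/LN adjuvant/Fat1562 and 1137 to 1574 CPM in VAT adjuvant/Fat1562, so that these groups did not overlap. For the RGS genes, calls that change without one or the other library of VAT adjuvant alone, the group of 2 libraries, are given beside the result, and those of the pathway lists in a paragraph of their own.

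In GRCm38 (mm10), all 7 are protein-coding genes. *Rgs2* lies on chromosome 1 at 143999338 to 144004161 and *Rgs1* at 144242296 to 144249242, both on the minus strand in a cluster of 5 RGS genes over 776.1 kb. Of that cluster, *Rgs13* had 0 counts, and *Rgs18* and *Rgs21* at most 1 in any library. *Rgs16* lies apart on the same chromosome at 153740349 to 153745468 on the plus strand. *Rgs3* is at 62559847 to 62704001 on the plus strand of chromosome 4, *Rgs10* at 128373621 to 128418758 on the minus strand of chromosome 7, *Rgs14* at 55369732 to 55384687 on the plus strand of chromosome 13 and *Rgs19* at 181688419 to 181693977 on the minus strand of chromosome 2. Exons of *Rgs16* overlap *Gm28513* on the opposite strand over 236 bases. Of the 38-base stretches of *Rgs3* exons, 12.0% also occur in other annotated genes, against 8.82% for *Rgs16*, 1.81% for *Rgs14* and 0% for the other 4, so counts of *Rgs3* and *Rgs16* are the least certain in this respect.

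The promoters of *Rgs2* and *Rgs16* are shown because these 2 genes had the largest differences between tissues, a choice made after their values were seen. Each sequence is the 250 bases before the RefSeq transcript start (GRCm38.p6), written 5′ to 3′ on the strand of the gene. Capitals mark matches to searched motifs. The *Rgs2* window is chr1:144004150-144004399 on the minus strand, and the *Rgs16* window is chr1:153740103-153740352 on the plus strand.
Rgs2: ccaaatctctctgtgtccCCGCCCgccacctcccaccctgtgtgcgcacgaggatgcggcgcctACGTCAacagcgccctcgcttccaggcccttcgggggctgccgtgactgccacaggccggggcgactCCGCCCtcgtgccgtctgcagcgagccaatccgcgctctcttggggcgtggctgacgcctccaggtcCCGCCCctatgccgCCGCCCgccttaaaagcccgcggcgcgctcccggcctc
Rgs16: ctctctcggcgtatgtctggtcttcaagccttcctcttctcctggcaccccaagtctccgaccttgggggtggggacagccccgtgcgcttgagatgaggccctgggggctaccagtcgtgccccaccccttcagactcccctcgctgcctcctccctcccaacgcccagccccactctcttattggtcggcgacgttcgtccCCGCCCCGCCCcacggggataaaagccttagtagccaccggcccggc

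The motif TGACGT, the core of the cAMP response element, occurred once in the *Rgs2* window, read on the other strand as ACGTCA, with its first base 186 bases before the start. It was not found in the *Rgs16* window, and 6.47% of all 32851 RefSeq windows of this length held it on either strand. The KLF/SP box GGGCGG, which here reads CCGCCC, occurred 4 times in the *Rgs2* window, and in the *Rgs16* window 2 copies overlapped, against 32.7% of all windows with at least 1 copy. Neither window held the AP-1 site TGACTCA (4.46% of windows), the E-box CACGTG (6.02%), the NFAT core GGAAA (55.6%) or the TATA box TATAAA (12.4%). The GC content was 72.4% in the *Rgs2* window and 66.4% in the *Rgs16* window, against a median of 52.4% over all windows. These matches describe letters and were not tested for binding.

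Which RGS genes differed between Treg cells of the same clone in fat and in lymphoid organs was asked first. With adjuvant alone, 5 of the 7 genes passed the test between VAT and Spl/LN, *Rgs2*, *Rgs16* and *Rgs1* higher in VAT and *Rgs10* and *Rgs3* lower. With adjuvant/Fat1562, 6 passed it, the same 3 higher and *Rgs14*, *Rgs3* and *Rgs19* lower. The background over all tested genes was 16.3% called with adjuvant alone, 9.09% higher and 7.18% lower in VAT, and 15.0% called with adjuvant/Fat1562, 8.26% higher and 6.73% lower. Of 9590 genes with a scaled mean above 50, 1958 and 1956 were called. The 7 genes were chosen with earlier results of these data known, so their counts beside these shares are a description and no test of the set. The median log2 difference of the 7 genes was 0.20 with adjuvant alone and 0.06 with adjuvant/Fat1562, against -0.03 and -0.01 over all tested genes. Values below are normalized counts per library. Log2 fold changes carry the adjusted p of edgeR's quasi-likelihood test and a standard error (SE) worked out from that test. Where groups are said not to overlap, the share of all tested genes that did the same was not counted. With so few libraries a group, such a gap alone is not read as a change. In bulk libraries such as these, fewer cells of a type and less RNA per cell cannot be told apart.

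**Figure D1:**
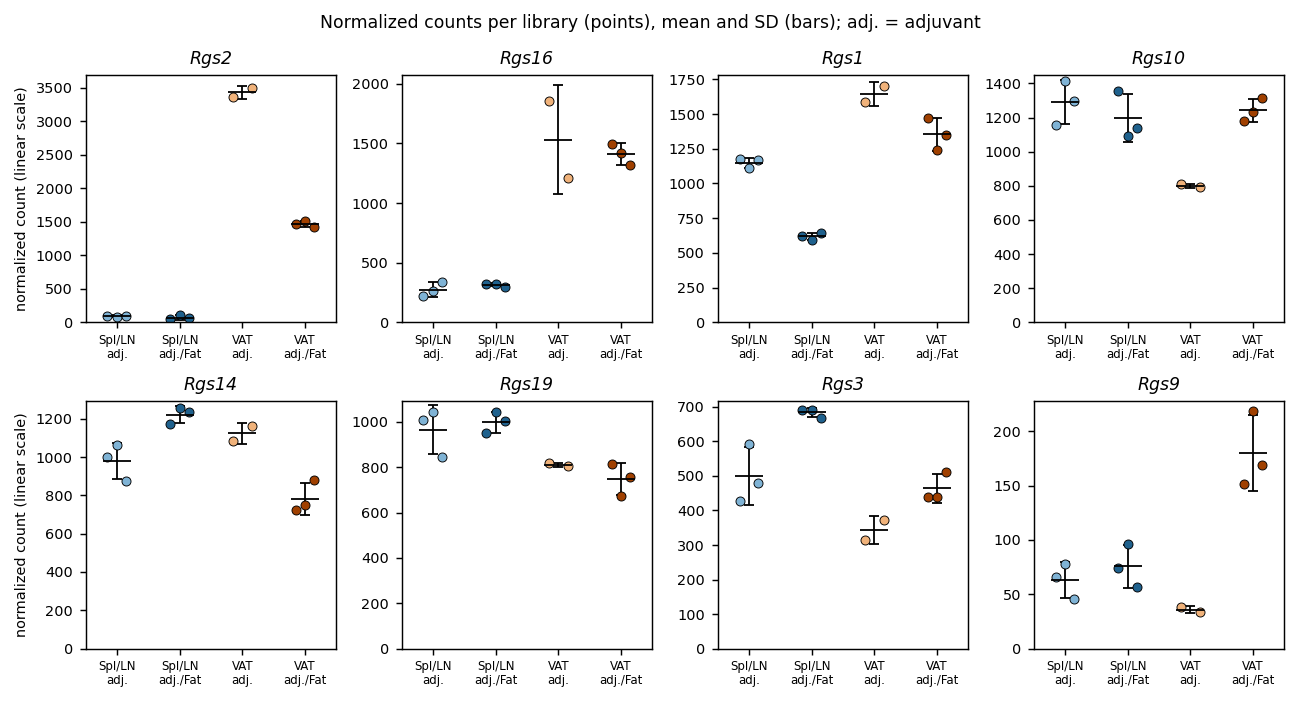
Normalized counts (linear y axes from 0) of the 7 RGS genes and of *Rgs9* in each of the 11 libraries, by group. Points are libraries, wide bars are group means and error bars are SD (n = 3, 3, 2 and 3). *Rgs2* stands at 76.0 to 98.4 in Spl/LN adjuvant alone and at 3361 and 3494 in VAT adjuvant alone, while *Rgs10* and *Rgs14* keep all group means within 782 to 1290.

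*Rgs2*, whose protein acts preferentially on Gαq, had the largest difference of the 7. Its normalized counts in Spl/LN were 98.4, 76.0 and 94.0 with adjuvant alone and 42.0, 107.9 and 60.8 with adjuvant/Fat1562. The VAT libraries held 3361 and 3494 with adjuvant alone and 1472, 1509 and 1426 with adjuvant/Fat1562. No VAT library came near any Spl/LN library. The level in VAT was 38.2-fold that in Spl/LN with adjuvant alone (log2 difference 5.25, SE 0.21, adjusted p = 1.22e-11) and 21.2-fold with adjuvant/Fat1562 (4.41, SE 0.20, adjusted p = 1.26e-10). By estimated fold, *Rgs2* ranked 67 and 44 among all tested genes in these comparisons.

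*Rgs16*, an R4 protein that acts on Gi and Gq and limits chemokine-driven migration of lymphocytes, was the second. It had 218.0, 261.4 and 341.5 normalized counts in Spl/LN with adjuvant alone and 324.2, 320.6 and 298.6 with adjuvant/Fat1562. In VAT it had 1855 and 1209 with adjuvant alone and 1496, 1421 and 1317 with adjuvant/Fat1562. All VAT libraries lay above all Spl/LN libraries, and the libraries of VAT adjuvant alone were the most spread, at 1532 ± 457 (SD, n = 2). The level in VAT was 5.59-fold higher with adjuvant alone (log2 difference 2.48, SE 0.18, adjusted p = 1.58e-08) and 4.49-fold higher with adjuvant/Fat1562 (2.17, SE 0.16, adjusted p = 5.57e-08).

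*Rgs1*, which dampens chemokine receptor signaling in B and T cells, was already high in Spl/LN, at 1175, 1109 and 1169 with adjuvant alone and 621.7, 594.2 and 645.3 with adjuvant/Fat1562. VAT libraries had 1584 and 1704 with adjuvant alone and 1474, 1239 and 1348 with adjuvant/Fat1562. The tissues did not overlap under either immunization. The VAT level was 1.43-fold higher with adjuvant alone (log2 difference 0.51, SE 0.10, adjusted p = 0.00177) and 2.18-fold higher with adjuvant/Fat1562 (1.12, SE 0.09, adjusted p = 2.07e-07).

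*Rgs3*, the R4 member with several long isoforms, went the other way. In Spl/LN it had 427.3, 593.7 and 479.4 normalized counts with adjuvant alone and 692.2, 692.5 and 669.3 with adjuvant/Fat1562. In VAT it had 314.4 and 371.7, and 440.5, 438.6 and 512.3. The VAT libraries were the lower ones in both comparisons, without overlap. The log2 difference was -0.54 (SE 0.15, adjusted p = 0.0199) with adjuvant alone and -0.56 (SE 0.13, adjusted p = 0.00716) with adjuvant/Fat1562. The first call was lost without VAT adjuvant alone replicate 1 (adjusted p = 0.198), without Spl/LN adjuvant alone replicate 2 (0.0871) and with only the groups compared in the fit (0.0992).

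*Rgs10*, a small protein selective for Gi, was lower in VAT with adjuvant alone but not with adjuvant/Fat1562. Spl/LN libraries had 1157, 1417 and 1297 normalized counts with adjuvant alone and 1354, 1089 and 1141 with adjuvant/Fat1562. The libraries of VAT adjuvant alone, at 808.9 and 790.8, lay below all others, and those of VAT adjuvant/Fat1562 had 1179, 1231 and 1315, within the range of Spl/LN. The log2 difference was -0.69 (SE 0.12, adjusted p = 0.000599) with adjuvant alone and 0.06 (95% interval -0.17 to 0.28, adjusted p = 0.791) with adjuvant/Fat1562. *Pecam1*, which T cells can also express, had the same arrangement, with 292.8 and 234.5 normalized counts in VAT adjuvant alone and 412.0 to 589.2 in the other libraries. Its log2 difference was -0.89 (adjusted p = 0.00123) with adjuvant alone and 0.03 (adjusted p = 0.934) with adjuvant/Fat1562, and the part of endothelial transcripts in the *Rgs10* values was not tested.

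*Rgs14*, which joins an RGS domain to Ras-binding domains and a motif that holds Gi in its GDP form, showed the opposite arrangement. It had 998.4, 1061 and 875.6 normalized counts in Spl/LN and 1085 and 1164 in VAT with adjuvant alone. After immunization with the peptide it had 1171, 1256 and 1236 in Spl/LN and 721.5, 747.9 and 877.8 in VAT. With adjuvant alone the log2 difference was 0.20 (95% interval -0.04 to 0.45, adjusted p = 0.273) and was not called. With adjuvant/Fat1562 *Rgs14* was lower in VAT, at -0.64 (SE 0.10, adjusted p = 0.000335).

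*Rgs19*, also called GAIP and active on Gi, varied the least of the 7 between groups. Its normalized counts in Spl/LN were 1008, 1045 and 842.8 with adjuvant alone and 948.7, 1042 and 1005 with adjuvant/Fat1562. VAT libraries had 816.5 and 803.3 with adjuvant alone and 813.6, 674.7 and 754.8 with adjuvant/Fat1562. With adjuvant alone the tissues lay close, at up to 816.5 in VAT and from 842.8 in Spl/LN. The log2 difference was -0.25 (95% interval -0.51 to 0.00, adjusted p = 0.179) with adjuvant alone and -0.42 (SE 0.11, adjusted p = 0.0130) with adjuvant/Fat1562. The second call was lost without Spl/LN adjuvant/Fat1562 replicate 2 (adjusted p = 0.0583) or without VAT adjuvant/Fat1562 replicate 2 (0.0779).

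**Figure D2:**
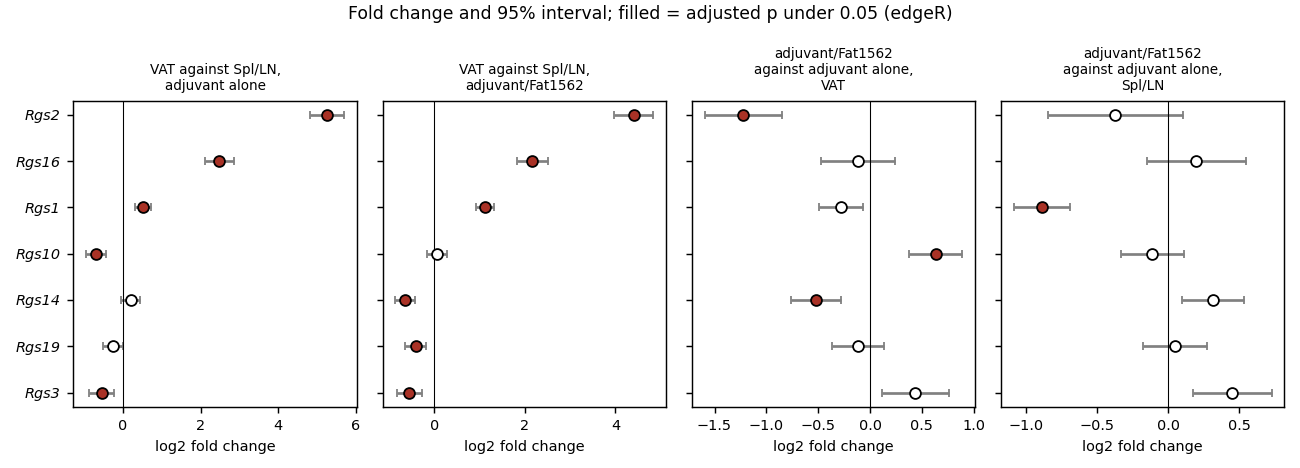
Log2 fold change from edgeR (x axes, on scales that differ between panels) and 95% interval worked out from its test, for each RGS gene in 4 comparisons. Filled points have an adjusted p under 0.05: 5 and 6 of 7 between tissues, 3 of 7 after peptide in VAT and 1 of 7 after peptide in Spl/LN. Over all tested genes the shares called were 16.3%, 15.0%, 8.30% and 3.98% in the same order.

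Immediate early genes, which cells switch on within minutes of a stimulus and also during the preparation of cells, moved with the tissues in the same libraries. VAT was minced and digested with warm collagenase before sorting. The summed level of 25 such genes was 3238 to 3387 CPM in Spl/LN adjuvant alone and 2880 to 3155 CPM in Spl/LN adjuvant/Fat1562. It was 25631 and 29754 CPM in VAT adjuvant alone and 11656 to 14304 CPM in VAT adjuvant/Fat1562. Between tissues, 23 of the 25 were called with adjuvant alone, 21 of them higher in VAT, and the counts were the same with adjuvant/Fat1562, against 16.3% and 15.0% of all tested genes. The median log2 difference of the 25 was 2.91 and 2.79. *Dusp2* (-1.32) and *Egr2* (-1.43) were lower in VAT with adjuvant alone, and *Egr1* (-0.99) and *Egr2* (-1.92) with adjuvant/Fat1562, all as log2 differences. The order of the 4 groups by the mean level of *Rgs2*, and by that of *Rgs1*, was that of this sum. *Rgs16* departed from it in Spl/LN, with means of 274 normalized counts with adjuvant alone and 314 with adjuvant/Fat1562. Digestion is described for VAT alone, so cell preparation and tissue cannot be told apart here. The part of cell preparation in the levels of *Rgs2*, *Rgs16* and *Rgs1* was not tested.

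To compare levels between genes, normalized counts were divided by the length of the merged exons. On this scale *Rgs10* led in Spl/LN, with 754 ± 76.1 per kb with adjuvant alone (SD, n = 3) and 698 ± 82.1 with adjuvant/Fat1562. *Rgs19* followed with 433 ± 48.2 and 448 ± 21.1, then *Rgs14* with 231 ± 22.3 and 288 ± 10.5. The next were *Rgs1* at 166 ± 5.21 and *Rgs16* at 117 ± 26.8 with adjuvant alone, and *Rgs16* at 134 ± 5.92 and *Rgs1* at 89.3 ± 3.68 with adjuvant/Fat1562. *Rgs3* and *Rgs2* were the lowest in both, *Rgs2* at 24.7 ± 3.27 and 19.4 ± 9.37. Neighbours in these orders did not overlap between libraries.

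In VAT with adjuvant alone *Rgs2* led at 945 ± 25.8 per kb (SD, n = 2), ahead of *Rgs16* at 655 ± 195 and *Rgs10* at 467 ± 7.48. *Rgs19* had 363 ± 4.19, *Rgs14* 265 ± 13.1, *Rgs1* 237 ± 12.2 and *Rgs3* 31.8 ± 3.75. With adjuvant/Fat1562 *Rgs10* led again at 726 ± 40.3 (SD, n = 3), followed by *Rgs16* at 603 ± 38.3, *Rgs2* at 405 ± 11.5 and *Rgs19* at 335 ± 31.3. *Rgs1* and *Rgs14*, at 195 ± 16.9 and 185 ± 19.7, overlapped. The other neighbours did not. The order depends on the length used. With the length of the principal transcript, chosen after seeing the data, *Rgs10* came before *Rgs16* on average in VAT adjuvant alone, *Rgs19* before *Rgs2* in VAT adjuvant/Fat1562, and *Rgs3* before *Rgs16* in Spl/LN adjuvant alone. In Spl/LN adjuvant/Fat1562 the order of *Rgs16*, *Rgs1* and *Rgs3* was turned round, with *Rgs3* at 176.1 per kb, *Rgs1* at 161.5 and *Rgs16* at 134.4. The leading gene of each group was the same.

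As a share of the per-kb total of the 7 genes, *Rgs2* made up 1.40% on average in Spl/LN adjuvant alone, 1.12% in Spl/LN adjuvant/Fat1562, 31.9% in VAT adjuvant alone and 16.3% in VAT adjuvant/Fat1562. *Rgs16* made up 6.62%, 7.72%, 22.0% and 24.2%, and *Rgs10* 42.5%, 40.1%, 15.8% and 29.1%. With the principal transcript length the shares of *Rgs16* were lower, at 3.79%, 4.44%, 15.4% and 15.9%, while those of *Rgs2* (0.965%, 0.774%, 26.9% and 12.8%) and *Rgs10* (47.3%, 44.7%, 21.5% and 37.1%) moved by less than 1.5 times. The per-kb total itself was 1771 ± 108 and 1740 ± 48.9 in the Spl/LN groups, 2964 ± 152 in VAT adjuvant alone and 2492 ± 44.4 in VAT adjuvant/Fat1562. All VAT libraries, the lowest at 2441, had more than the highest Spl/LN library, at 1894.

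**Figure D3:**
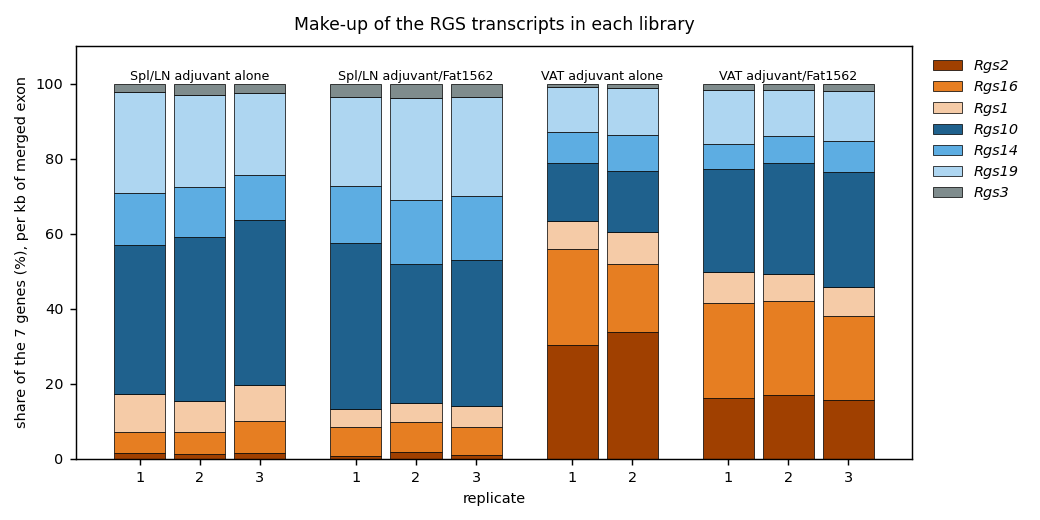
Share (%) of each RGS gene in the per-kb total of the 7 genes, 1 stacked bar per library, grouped by tissue and immunization. *Rgs2* and *Rgs16* form thin bands in Spl/LN and, on average, 31.9% and 22.0% in VAT adjuvant alone, while *Rgs10* takes 42.5% in Spl/LN adjuvant alone and 15.8% there.

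Whether the peptide changed these genes in VAT was asked next. After adjuvant/Fat1562, *Rgs2* and *Rgs14* fell and *Rgs10* rose in VAT Treg cells, so that 3 of the 7 genes were called. Over all tested genes 8.30% were called, 4.33% higher and 3.97% lower, and the median log2 change of the 7 was -0.12 against 0.01 over all genes. *Rgs2* went from 3428 ± 93.6 (SD, n = 2) to 1469 ± 41.8 (SD, n = 3), without overlap, a log2 change of -1.22 (SE 0.18, adjusted p = 0.000249). *Rgs14* went from 1125 ± 55.4 to 782 ± 83.7, also without overlap (-0.52, SE 0.12, adjusted p = 0.00850). *Rgs10* went from 800 ± 12.8 to 1242 ± 68.9, the highest control library staying below the lowest peptide library (0.63, SE 0.12, adjusted p = 0.00271). *Pecam1* was called higher in the same comparison (1.00, adjusted p = 0.00111).

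*Rgs1*, *Rgs3*, *Rgs16* and *Rgs19* did not pass the test in VAT. The log2 change was -0.28 for *Rgs1* (95% interval -0.50 to -0.06, adjusted p = 0.110) and 0.44 for *Rgs3* (0.12 to 0.76, adjusted p = 0.0941). It was -0.12 for *Rgs16* (-0.48 to 0.24) and -0.12 for *Rgs19* (-0.37 to 0.14). The summed level of immediate early genes was lower after peptide in the same libraries, and 17 of the 25 were called (8.30% of all genes), 16 of them lower and *Dusp2* higher (1.25). Of 4 tested plasma cell markers 2 were called (8.30% of all genes), *Jchain* and *Ighm*, both lower after peptide. The part of plasma cell transcripts in the RGS values was not tested. Without VAT adjuvant alone replicate 2, the library with more plasma cell transcripts, the call of *Rgs14* was lost (log2 change -0.47, adjusted p = 0.102), and 2 of the 7 genes were called. Without replicate 1, the log2 change of *Rgs16* was 0.22 in place of -0.12.

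In Spl/LN the peptide changed 1 of the 7 genes. *Rgs1* fell from 1151 ± 36.2 to 620 ± 25.6 (SD, n = 3 each), with no overlap, a log2 change of -0.89 (SE 0.09, adjusted p = 3.27e-05). The plasma cell sum was lower in the same libraries, as given above. Of its 4 tested genes 1 was called, *Igha*, lower at 4.82, 3112 and 310.4 normalized counts before and 20.3, 11.4 and 7.21 after, groups that overlapped. The part of plasma cell transcripts in the fall of *Rgs1* was not tested. Over all tested genes 3.98% were called, 2.58% higher and 1.40% lower, and the median log2 change was 0.05 for the 7 genes and 0.00 for all genes. None of the other 6 was called. *Rgs3* had 500 ± 85.1 before and 685 ± 13.3 after (log2 change 0.45, 95% interval 0.18 to 0.73, adjusted p = 0.0624). *Rgs14* changed by 0.32 (0.10 to 0.54, adjusted p = 0.0989). *Rgs3* was called without the filter on low counts (adjusted p = 0.0463), with a filter on the coefficient of variation (0.0489), with DESeq2 (0.0264) and without Spl/LN adjuvant alone replicate 2 (0.0220). Log2 changes of the rest were -0.37 for *Rgs2* (-0.85 to 0.10), -0.11 for *Rgs10* (-0.33 to 0.11), 0.20 for *Rgs16* (-0.15 to 0.55) and 0.05 for *Rgs19* (-0.17 to 0.27). Of the 25 immediate early genes, 5 were called, 4 of them lower. Without Spl/LN adjuvant/Fat1562 replicate 2, which had the highest *Rgs2* count of its group, *Rgs2* was called lower as well (-0.79, adjusted p = 0.0309).

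The response to peptide differed between the tissues for *Rgs1*, *Rgs10* and *Rgs14*, by the test of the difference itself (the interaction of tissue and immunization). This background was 3.72% of tested genes, 1.70% with a higher and 2.02% with a lower change in VAT than in Spl/LN, and the median was -0.17 for the 7 genes and 0.01 for all. *Rgs1* changed by -0.28 in VAT and -0.89 in Spl/LN, a difference of 0.61 (SE 0.14, adjusted p = 0.0195). *Rgs10* changed by 0.63 in VAT and -0.11 in Spl/LN, a difference of 0.75 (SE 0.16, adjusted p = 0.0131), and the difference for *Pecam1* was 0.92 (adjusted p = 0.0266). *Rgs14* changed by -0.52 in VAT and 0.32 in Spl/LN, a difference of -0.84 (SE 0.16, adjusted p = 0.00531). The tissue and peptide comparisons share the same 4 groups of libraries and are not independent of one another.

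For *Rgs2* the difference between responses was -0.85 (95% interval -1.46 to -0.24, adjusted p = 0.124) and was not called. It was called without the filter on low counts (adjusted p = 0.00173) and without Spl/LN adjuvant/Fat1562 replicate 1 (-1.10, adjusted p = 0.0227). The intervals held 0 for *Rgs3* (-0.02, -0.44 to 0.41), *Rgs16* (-0.32, -0.82 to 0.18) and *Rgs19* (-0.17, -0.50 to 0.17). Without VAT adjuvant alone replicate 1, the calls of *Rgs1* (adjusted p = 0.105) and *Rgs10* (0.0550) were lost, and without replicate 2 that of *Rgs10* (0.0599). The call of *Rgs1* was also lost without Spl/LN adjuvant/Fat1562 replicate 2 (0.0576). That of *Rgs14* was kept whichever library was left out, with values from -0.93 to -0.77.

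**Figure D4:**
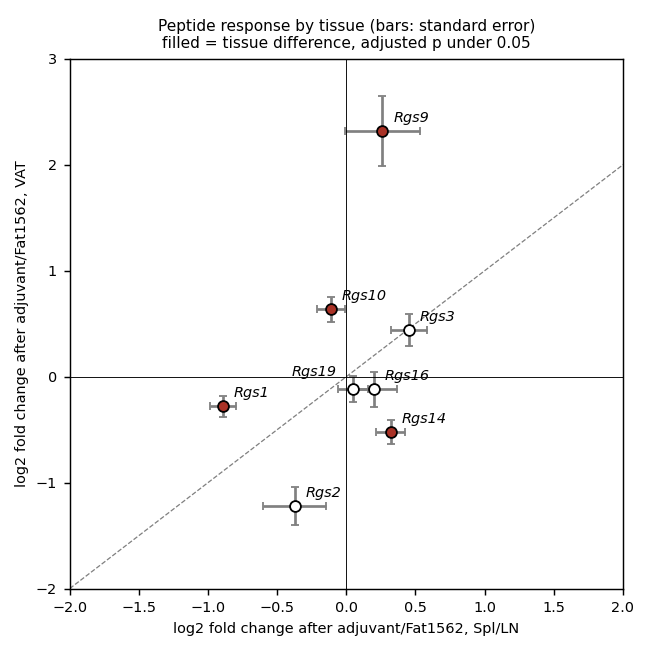
Log2 fold change after adjuvant/Fat1562 in Spl/LN (x axis) and in VAT (y axis) for the 7 RGS genes and *Rgs9*, with standard errors as bars and equal change as a dashed line. Filled points differ between tissues at an adjusted p under 0.05: *Rgs1*, *Rgs10* and *Rgs9* lie above the line and *Rgs14* below it.

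Of 14 other RGS genes in the table, 4 passed the filter: *Rgs5*, *Rgs9*, *Rgs11* and *Rgs12*. *Rgs9*, an R7 protein best known from photoreceptors and striatal neurons, was the 1 gene of these called in any comparison. It had 65.6, 78.1 and 45.7 normalized counts in Spl/LN adjuvant alone and 74.4, 96.2 and 56.8 in Spl/LN adjuvant/Fat1562. In VAT it had 38.0 and 33.7 with adjuvant alone and 151.7, 218.8 and 168.6 with adjuvant/Fat1562. The last group lay above all other libraries. After peptide in VAT *Rgs9* rose 5.00-fold (log2 change 2.32, SE 0.33, adjusted p = 0.000212), against 0.26 (95% interval -0.31 to 0.83) in Spl/LN. The difference between these responses was 2.06 (SE 0.42, adjusted p = 0.00984), and its call was lost without VAT adjuvant alone replicate 2 (1.99, adjusted p = 0.0555). Between tissues it was higher in VAT with adjuvant/Fat1562 (1.25, SE 0.26, adjusted p = 0.00313) and had a log2 difference of -0.81 (adjusted p = 0.110) with adjuvant alone.

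*Rgs11*, also of the R7 subfamily, had group means from 70.7 to 124.8, and *Rgs12*, of the R12 subfamily, from 39.0 to 81.9. *Rgs5*, a gene of pericytes and smooth muscle, had 13.0 and 8.73 normalized counts in VAT adjuvant alone and at most 3.65 in any other library. The remaining 10, among them *Rgs4* and *Rgs13* with 0 counts, had at most 14 counts in any library, the highest being *Rgs8*.

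The other parts of the pathway were read from gene lists, whose counts stand beside the share called over all tested genes in the same comparison. That share was 16.3% and 15.0% between tissues (adjuvant alone and adjuvant/Fat1562), 8.30% and 3.98% after peptide (VAT and Spl/LN) and 3.72% in the interaction. Of 18 chemokine receptors, 16 were tested, and 11 were called between tissues with adjuvant alone, 8 higher and 3 lower in VAT (16.3% of all genes). With adjuvant/Fat1562 11 were called as well, again 8 higher and 3 lower (15.0% of all genes). The median log2 difference of the 16 was 1.54 and 0.50, against -0.03 and -0.01 over all genes. With adjuvant alone, *Cxcr6*, the receptor for CXCL16, had group means of 400 normalized counts in Spl/LN and 5413 in VAT (log2 difference 3.76, SE 0.16, adjusted p = 2.01e-11). *Ccr9*, the receptor for CCL25, had 185 and 2965 (4.01, SE 0.29, adjusted p = 1.95e-08), but its exons overlap *AC165425.1* over 1932 bases. The skin-homing receptor gene *Ccr10* (261 and 3.80, log2 difference -5.98) and the follicular receptor gene *Cxcr5* (334 and 20.2, -4.01) were lower in VAT. *Ccr10* had raw counts of 7 and 0 in VAT adjuvant alone, so the size of its difference is inexact.

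With adjuvant/Fat1562, *Ccr8*, a receptor common on tissue Treg cells, had 931 normalized counts in Spl/LN and 5605 in VAT (log2 difference 2.59, SE 0.14, adjusted p = 7.84e-10). *Ccr1* had 111 and 580 (2.37) and *Cx3cr1*, the fractalkine receptor gene, 24.0 and 367 (3.94). *Ccr10*, at 19.5 in Spl/LN, was at 0 counts in the 3 VAT libraries and was at least 5.80-fold lower there, against a floor of 3 counts per library.

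After peptide in VAT, 8 of the 16 receptors were called (8.30% of all genes), 4 higher and 4 lower, among them *Cx3cr1* (log2 change 5.20) and *Cxcr3* (1.72), the receptor for interferon-induced chemokines, higher, and *Ccr3* (-2.07) and *Ccr1* (-1.86) lower. In Spl/LN 9 were called, 5 higher and 4 lower (3.98% of all genes). There *Ccr7*, which guides cells into lymph nodes, fell from 854 ± 114 to 101 ± 62.7 (log2 change -3.07, SE 0.29, adjusted p = 1.28e-05), and *Ccr10* fell by 3.76 on the log2 scale. *Ccr9* rose (2.54), and *Cx3cr1* was called higher, at 1.59 normalized counts before and 24.0 after. The responses differed between tissues for 7 receptors (3.72% of all genes), 2 higher in VAT and 5 lower, led by *Ccr7* (3.59), *Ccr9* (-2.82), *Cxcr6* (-1.67) and *Ccr3* (-1.47).

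Of 18 other G protein-coupled receptors that guide leukocytes, 13 were tested. Between tissues 7 were called with adjuvant alone, 3 higher and 4 lower (16.3% of all genes), and 9 with adjuvant/Fat1562, 3 higher and 6 lower (15.0%). Their median log2 difference was -0.05 and -0.64. The S1P receptor gene *S1pr1*, which cells need to leave lymphoid organs, was lower in VAT in both (log2 difference -1.83 and -2.08), at 1633 and 1624 normalized counts in the Spl/LN groups and 461 and 385 in the VAT groups. The leukotriene B4 receptor gene *Ltb4r1* was higher in both (2.80 and 1.15), and *Gpr18* (-3.29 and -1.22) and *Gpr15* (-2.63 and -2.75) were lower in both, as was *Lpar6* (-1.68 and -1.63). Exons of *Gpr15* and *Lpar6* overlap *Cpox* and *Rb1*. After peptide in VAT 5 were called (8.30% of all genes), all lower, led by *Gpr34* (-2.33), *Gpr15* (-1.63), *Ltb4r1* (-1.15) and *P2ry10* (-0.61). In Spl/LN 3 were called (3.98% of all genes), *Gpr15* (-1.50) and *Gpr18* (-1.17) lower and *Ltb4r1* (0.50) higher, and the responses differed for 3 (3.72% of all genes), *Gpr18* (2.07), *Ltb4r1* (-1.66) and *Gpr132* (-0.96).

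Of 13 listed Gα subunits, the substrates of RGS proteins, 10 were tested. Of these, 2 were called between tissues with adjuvant alone, a share near the 16.3% of all genes, and 4 with adjuvant/Fat1562 (15.0% of all genes). Their median log2 difference was 0.14 with adjuvant alone and 0.00 with adjuvant/Fat1562. *Gna15*, a Gq-class subunit of blood cells, was higher in VAT with adjuvant alone (log2 difference 0.90), and *Gna11*, of the same class, was lower in both (-0.60 and -0.58). With adjuvant/Fat1562 *Gnaq* (0.70) and *Gna13* (0.52) were higher and *Gnal* (-0.50) lower. *Gnai2* and *Gnai3*, the Gi subunits most used by chemokine receptors in lymphocytes, were not called between tissues. *Gnai2* had log2 differences of -0.08 and -0.10. After peptide *Gnal* fell in VAT (-0.70), *Gna15* (0.60) and *Gnai2* (0.39, adjusted p = 0.0498) rose in Spl/LN, and the responses differed for *Gna15* (-0.83). These were 1, 2 and 1 of the 10, against 8.30%, 3.98% and 3.72% of all genes.

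Among 10 tested Gβ and Gγ subunits of 16 listed, 3 and 2 were called between tissues, against 16.3% and 15.0% of all genes, and their median log2 difference was 0.10 and 0.24. *Gnb4* (1.05 and 0.64) and *Gnb1* (0.54 and 0.35) were higher in VAT under both immunizations. *Gng3* was at 0 counts in both libraries of VAT adjuvant alone, against 6.96 normalized counts in Spl/LN adjuvant alone and 7.86 in VAT adjuvant/Fat1562, and was called in both comparisons, at least 1.86-fold and at least 2.10-fold lower. Of the other regulators of G proteins and receptors, 12 of 14 listed symbols were in the table and 11 were tested. Of these, 2 were called between tissues with adjuvant/Fat1562, a share near the 15.0% of all genes. They were *Grk6*, a receptor kinase gene (-0.66), and *Ric8a*, a chaperone gene of Gα (-0.48), both lower in VAT. In each other comparison 0 were called.

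Of 17 effectors and motility genes 16 were tested, and 5 and 4 were called between tissues, against 16.3% and 15.0% of all genes, with a median log2 difference of -0.04 and -0.18. *Rasgrp2*, the activator of Rap1 in integrin adhesion, was lower in VAT (log2 difference -1.85 and -3.15), as was *Plcb2*, a phospholipase Cβ gene (-0.81 and -0.76). *Rap1b* was higher in both (0.86 and 0.35), *Pik3r5*, a subunit of the PI3K driven by Gβγ, was higher with adjuvant alone (1.05), and *Rac2* was lower with adjuvant/Fat1562 (-0.26). After peptide in VAT 4 were called (8.30% of all genes), *Rasgrp2* (-1.40), *Pik3r5* (-1.28) and *Rassf5* (-0.35) lower and *Rap1a* (0.57) higher. In Spl/LN 2 were called (3.98% of all genes), *Rap1b* (0.51) and *Prex1* (0.48), which rose. The responses differed for 3 (3.72% of all genes), *Pik3r5* (-1.43), *Rasgrp2* (-1.29) and *Prex1* (-0.86). Exons of *Gnal*, *Gna13*, *Gng3*, *Ric8a* and *Rasgrp2* overlap those of *Mppe1*, *Gm11696*, *Bscl2*, *Sirt3* and *Gm14965*, so their counts are less certain.

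The pathway lists were also read without each library of VAT adjuvant alone, a setting added after seeing the data. These fits hold a lone library of that group. Fewer genes were called over all tested genes too, in every comparison, so a lost call is not read as a trait of its gene or list. None of the chemokine receptors lost its call in a comparison for which it was named above. In other comparisons, *Cxcr5* lost its call after peptide in VAT (log2 change 0.95) without replicate 2. Without the same library, *Ccr8* lost its call in the interaction (0.53) and *Ccr3* between tissues with adjuvant/Fat1562 (log2 difference -0.55). Of the other G protein-coupled receptors named after peptide in VAT, *Gpr34* lost its call without replicate 1 (log2 change -1.96) and *Gpr15* without replicate 2 (-1.13).

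Among G proteins, calls lost without either library were those of *Gna11* with adjuvant alone (adjusted p = 0.0826 and 0.218), of *Gnal* after peptide in VAT (0.0728 and 0.175) and with adjuvant/Fat1562 (0.0616 and 0.0612), and both calls of *Gng3* (0.115 to 0.176). The call of *Gnb4* with adjuvant alone was lost without replicate 1 (0.0742). Of the effectors, *Rap1a* (0.163 and 0.0886) and *Rassf5* (0.170 and 0.0716) lost their calls after peptide in VAT without either library. Without replicate 1, *Rasgrp2* (0.0710) lost its call in that comparison, *Plcb2* (0.0607) lost its own with adjuvant alone, and *Rasgrp2* (0.223) and *Prex1* (0.132) lost theirs in the interaction. Calls in comparisons without this group moved too. Those of *Gnal* with adjuvant/Fat1562 (log2 difference -0.49 and -0.50) and of *Ltb4r1* after peptide in Spl/LN (log2 change 0.50 in both fits) were lost without either library. Each such fit set the filter, the library scaling, the shared spread and the adjustment anew. Which of these moved the calls was not tested. Most of the immediate early genes called before stayed called between tissues and after peptide in VAT. Calls were also gained. Without replicate 1 these were *Plcb3* with adjuvant alone (log2 difference -0.94), *Pik3cg* after peptide in VAT (0.76) and *Cxcr5* in the interaction (2.81). *Prex1* was gained after peptide in VAT without replicate 2 (-0.59), and *Pik3cg* with adjuvant/Fat1562 without either library (0.45 in both fits).

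**Figure D5:**
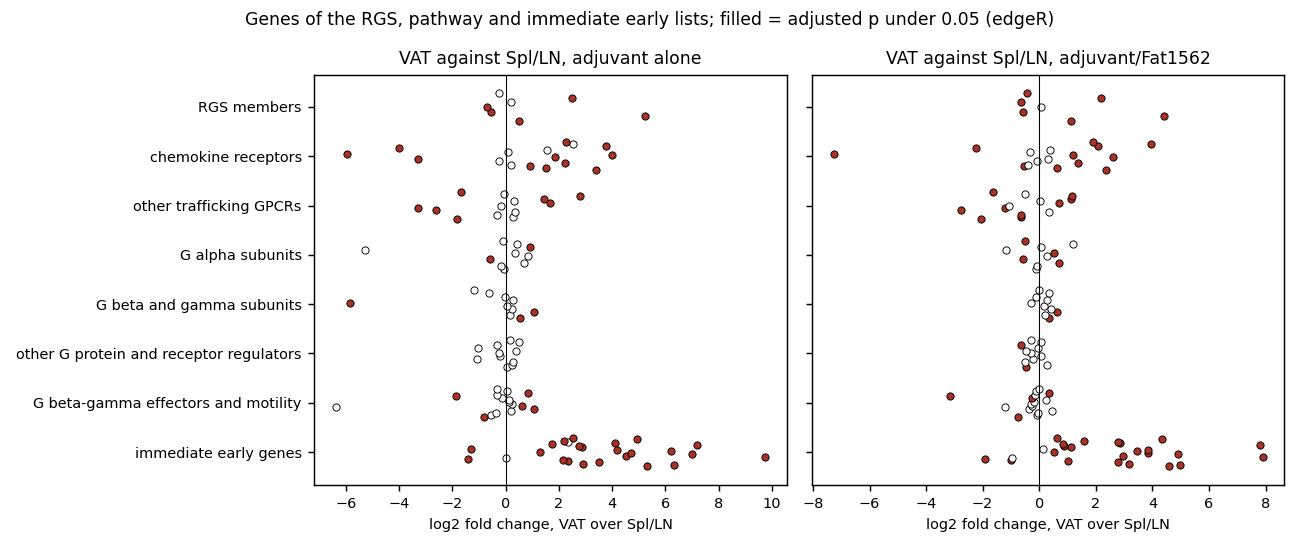
Log2 fold change between VAT and Spl/LN (x axis) of each tested gene in 8 gene lists, with adjuvant alone (left) and with adjuvant/Fat1562 (right). Each point is a gene, and filled points have an adjusted p under 0.05. The chemokine receptors hold 11 called genes of 16 in each panel and the immediate early genes 23 of 25, while the Gα subunits hold 2 and 4 of 10. Over all tested genes 16.3% (left) and 15.0% (right) were called.

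The genes whose levels ran most like each RGS gene were found by Pearson's r of log2(normalized count + 1) over the 11 libraries, a description in which points share tissue and immunization. For *Rgs2* these were *Junb* (0.989), an AP-1 subunit and immediate early gene, *Tnfaip3* (0.988), which encodes the NF-κB inhibitor A20, and *Pim3* (0.987), a kinase gene. *Junb* had group means of 3497 and 2587 in Spl/LN and 40208 and 17825 in VAT. For *Rgs16* they were *Fam110a* (0.993), *Gm26532* (0.988) and *Sik1* (0.986), a salt-inducible kinase gene. In all, 241 genes for *Rgs2* and 279 for *Rgs16* had an r above 0.9.

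The remaining 5 had fewer such genes, between 9 and 27. For *Rgs1* the highest were *Snhg8* (0.965), *Tulp2* (0.958) and *Tbca* (0.955), and for *Rgs3* they were *Matn2* (0.973), *Foxn3* (0.959) and *Rin3* (0.946). For *Rgs10* they were *Atp5h* (0.932), *Hectd2* (0.929) and *Slc9b2* (0.928), and for *Rgs14* they included *Leprotl1* (0.948) and *Cd37* (0.931). For *Rgs19* they were *Gm20605* (0.959), *Rbck1* (0.946) and *Eps15l1* (0.938). Among the 7 genes themselves, r over the libraries was 0.958 between *Rgs2* and *Rgs16* and -0.898 between *Rgs1* and *Rgs3*.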

How the data were processed

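Each library was made from 1000 double-sorted Treg cells, with 18 PCR cycles and paired reads of 38 bases. The authors deposited 1 table of raw counts for 52997 genes listed by symbol. The submitters' processing notes name STAR 2.5.4, featureCounts and mm10. The study's methods name Cuffquant and a filter on normalized expression, and the annotation and the use of strand are not given in the sources used here. No molecular identifiers are named, so a count is of amplified fragments. Columns were matched to samples by the labels, and 0 were left unmatched.

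From the counts, genes whose scaled mean passed 10 in any group were tested with edgeR 4.0.16 (R 4.3.3; TMM, quasi-likelihood fit and test, prior count 0.125) in 1 fit of the 4 groups, with Benjamini-Hochberg adjustment over 12932 genes and calls at an adjusted p under 0.05. The biological coefficient of variation was 19.06%. The test itself gives no standard error, so the SE is the absolute log2 fold change over the square root of the F statistic. The intervals are the SE times a t quantile. They are not adjusted for the number of genes, so they can exclude no change for a gene not called. Normalized counts are counts over the TMM-scaled library size, brought to the mean library size. The labels do not say that libraries came from separate mice, where the methods speak of biological replicates, so p-values measure the spread between these samples. Counts of replicate libraries differed by more than sampling noise (chi-square per degree of freedom from 5.27 to 11.0).

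The 7 genes and all gene lists were chosen with earlier results of these data known. Named were the 7 genes, every other tested RGS gene, *Foxp3* and *Cd4*, of each pathway list up to 4 called genes with the largest change, and the 3 genes most like each RGS gene by Pearson's r. Of these, 1 gene is not reported here. Immediate early genes that went against their list, *Gnai2* and *Gnai3*, and genes repeated across comparisons were named after their values were seen. So were genes that gained a call without a library of VAT adjuvant alone. Positions and lengths came from GENCODE vM21 (GRCm38) and promoters from RefSeq, which gave windows for 5 of the 7 genes. *Rgs1* and *Rgs14* had none in the table used.

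The settings varied were the filter (none, or a scaled mean over 50), a coefficient of variation under 0.7, size factors by median of ratios, limma 3.58.1 on quantile-normalized values, DESeq2 1.42.0, only the groups compared, the replicate number as a block, at least a 2-fold change and each library left out. The fit was tested on simulated data first.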

Additional observations from a re-analysis of the deposited data

Results flagged for a closer look

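For 4 RGS genes the response to adjuvant/Fat1562 differed between tissues by the test of the interaction, which is why they are listed here. The log2 response in VAT minus that in Spl/LN was 0.61 for *Rgs1* (fell in Spl/LN, not called in VAT), 0.75 for *Rgs10* (rose in VAT, not called in Spl/LN) and -0.84 for *Rgs14* (fell in VAT, not called in Spl/LN). It was 2.06 for *Rgs9*, which rose in VAT and was not called in Spl/LN. The calls of *Rgs1* and *Rgs10* were lost when VAT adjuvant alone replicate 1 was left out, with adjusted p-values of 0.105 and 0.0550. That of *Rgs9* was lost without VAT adjuvant alone replicate 2 (adjusted p = 0.0555), and its difference ran from 1.88 to 2.27 when each library was left out in turn. Groups of 2 or 3 libraries are too small for a test of single outlying samples.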

How the results depend on the processing

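Of 693 values of the 7 genes under the alternatives, 654 kept their direction and their side of the threshold, 22 lost a call, 7 gained one and 10 changed sign. With at least a 2-fold change required, the genes called numbered 1157 and 789 between tissues (adjuvant alone and adjuvant/Fat1562), 455 and 190 after peptide (VAT and Spl/LN) and 277 in the interaction, and of the 7 RGS genes 2, 3, 1, 0 and 0. In Spl/LN, 793 genes were called after peptide without the filter and 793 with DESeq2, which called 789 in the interaction. Of the RGS genes, 2 were called after peptide in Spl/LN without the filter, with a coefficient of variation under 0.7 and with DESeq2. With 1 library left out, the genes called ran from 1259 to 2114, 1289 to 2378, 508 to 1394, 190 to 502 and 240 to 576 in the same order, and the RGS genes called from 4 to 5, 5 to 6, 2 to 3, 1 to 2 and 1 to 4. The lowest counts came without VAT adjuvant alone replicate 1 (1259 and 240), VAT adjuvant/Fat1562 replicate 2 (1289), VAT adjuvant alone replicate 2 (508) and Spl/LN adjuvant/Fat1562 replicate 2 (190). A lone VAT adjuvant alone library is then assumed to vary like the other groups. Signs that changed were those of small differences: *Rgs19* after peptide in Spl/LN with quantile normalization (-0.010), and with 1 library left out *Rgs19* there (-0.037 to 0.11), *Rgs10* between tissues with adjuvant/Fat1562 (-0.0050 to 0.16), *Rgs16* after peptide in VAT (-0.39 to 0.22), and in the interaction *Rgs3* (-0.16 to 0.11) and *Rgs16* (-0.59 to 0.031). The cause was not tested.

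With the replicate number as a block, 1803, 1860, 990, 515 and 437 genes were called, and 5, 6, 3, 1 and 3 of the RGS genes. Deviations of libraries with the same number correlated between -0.0395 and 0.0554 over all pairs of groups. Between the tissues with adjuvant alone these values were 0.0373 and 0.0303, against -0.0373 to 0.0056 for different numbers. The 2 libraries of VAT adjuvant alone deviate from their mean by equal and opposite amounts. Each value for the first thus returns for the second with its sign turned. The values for same and different numbers there are not separate evidence on pairing. With adjuvant/Fat1562 the values for the same number were 0.0554, 0.0300 and 0.0299, against -0.0576 to 0.0277 for different numbers. The labels do not say whether both tissues of a number came from the same recipient. A pairing of tissues within each immunization was not tested, and the main fit takes the libraries as unpaired. With 2 or 3 libraries a group and totals from 4490242 counts, small differences and RGS genes of a few counts could not be resolved.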
